A study of Homo sapiens with 12 samples.

Results

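T-47D is a long-established human breast cancer line that carries the oestrogen receptor. The cells came from ATCC and are labelled as breast epithelium, with a wild-type genotype stated for the RNA samples. Described here is its state under solvent alone. Of the 12 samples of the series, the 6 that received DMSO were taken by their labels: 3 RNA samples and 3 samples for ATAC-seq, which measures how open chromatin is to the Tn5 transposase. The cells grew in DMEM with 10% fetal bovine serum and were exposed for 24 h. For ATAC-seq the medium held 0.1% DMSO, 50000 cells were taken from each of 3 separate cultures, and the RNA labels name DMSO without a concentration. The remaining 6 samples received a drug and were not used. The RNA samples are labelled as replicates 1 to 3 with no tie to the ATAC cultures, so the assays were joined only through their means.

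A luminal breast cell lines the duct or the alveolus of the gland and carries the simple keratins 8, 18 and 19. Its identity is held by a small set of DNA-binding proteins, among them GATA3 and FOXA1, which open chromatin for the oestrogen receptor. The receptor, encoded by ESR1, is a ligand-activated transcription factor, and the progesterone receptor gene PGR is among its best known targets. Basal and myoepithelial cells, which lie outside the luminal layer, instead carry keratins 5 and 14 and the transcription factor p63.

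RNA levels are given in FPKM, a fragment level scaled to sequencing depth and to transcript length, so levels can be compared between genes. The table listed 19460 genes, and 14120 of them, 72.6%, had a mean of at least 1 FPKM. These include non-coding genes and genes without a RefSeq match. A protein-coding match was found for 1609 of the 4689 genes at 0.1 to 1 FPKM, 4336 of the 6521 at 1 to 10 and 6396 of the 6702 at 10 to 100. Of the protein-coding genes, 380 had a mean under 0.1 FPKM, 805 one of 100 to 1000 and 51 one of 1000 or more. The 72.6% is therefore below the share of protein-coding genes that reached 1 FPKM. A list set beside the 72.6% can pass it and still lie below the protein-coding share. The 1115 genes at 0.8 to 1.25 FPKM had a median of 73.1 normalized counts in the authors' deposited table, which averages the drug-treated samples in, and that is the depth behind a threshold of 1 FPKM. Only 2 listed genes stood at 0 in all 3 samples. The lowest mean normalized count in the authors' deposited table was 4.95, so the genes listed are those with some reads, and a gene that is not listed has no RNA level here. The ATAC table gave 38121 peaks of 186 to 1632 bases, 1 set counted in the drug-treated samples too, with 12830062, 18250496 and 14410775 counts in replicates 1 to 3.

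All 6 luminal markers were among the more abundant RNAs. KRT8, a type II keratin on chromosome 12 (52897191 to 52949860, GRCh38), stood at 1822, 1697 and 1575 FPKM in replicates 1, 2 and 3, a mean of 1698 ± 123 (SD, n = 3) and rank 32. KRT18 (chromosome 12, 52948855 to 52952906), its type I partner in the same filament, stood at 1062, 987 and 939 FPKM, a mean of 996 ± 62.1 and rank 71. Both keratins were highest in replicate 1 and lowest in replicate 3.

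The transcription factors of the luminal state came next. GATA3 (chromosome 10, 8045333 to 8075198), a zinc finger factor needed for luminal differentiation, stood at 397, 391 and 385 FPKM (mean 391 ± 6.11, rank 193). FOXA1 (chromosome 14, 37589552 to 37595249), a forkhead protein that can bind closed chromatin, stood at 156, 150 and 159 FPKM (mean 155 ± 4.70, rank 528). The 3 samples of each factor lay close together, and the ranges of the 6 markers did not overlap with each other.

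The hormone receptors were the lowest of the markers. PGR (chromosome 11, 101029624 to 101129813) stood at 80.4, 82.1 and 83.6 FPKM, a mean of 82.0 ± 1.62 and rank 1163. ESR1 (chromosome 6, 151656672 to 152129619) stood at 44.0, 43.6 and 41.9 FPKM, a mean of 43.2 ± 1.09 and rank 2398, which is within the top 12.3% of listed genes.

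**Figure D1:**
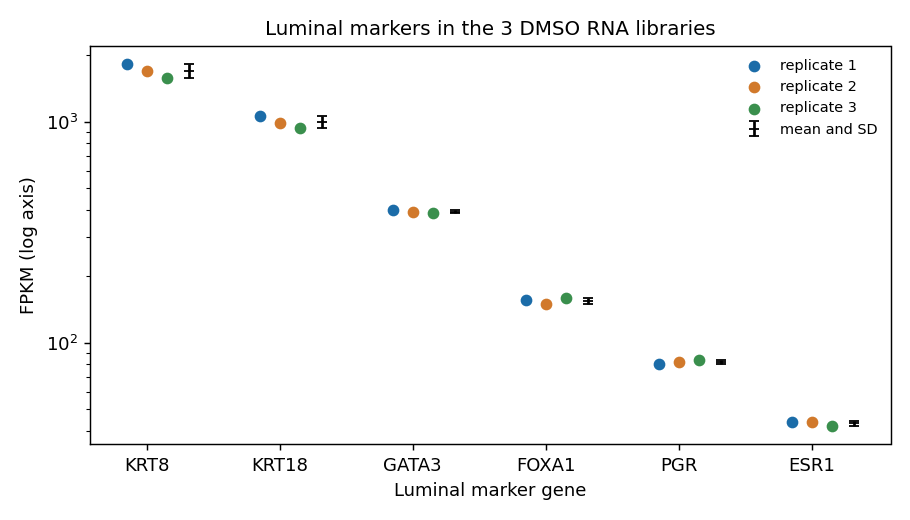
FPKM of the 6 luminal markers in each of the 3 DMSO RNA samples (coloured points, log axis), with the mean and SD in black. KRT8 is the highest at a mean of 1698 FPKM and ESR1 the lowest at 43.2 FPKM, and no marker's range overlaps the next.

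The stretch before a gene's start shows where the markers did and did not have an ATAC peak. Below are the 250 bases before the start for the windows of GATA3 and KRT8 that a peak overlapped, and before the outermost start of the 3 markers with a listed start and no peak within 1 kb of it. They are RefSeq sequences on GRCh38.p14, read 5′ to 3′ on the gene's strand. Capitals mark matches on either strand to the core letters of 9 kinds of site: AGGTCA for nuclear receptors, TGTTTAC for forkhead factors, AGATAA for GATA factors, GCCNNNGGC for AP-2, AACCGGTT for grainyhead, GGGCGG for Sp, CCGGAAG for ETS, CCAAT for NF-Y and TATAAA for the TATA box. No match shown overlaps another, though a GCCNNNGGC match can contain CCAAT.
GATA3 upstream start (+ strand), chr10:8045083-8045332: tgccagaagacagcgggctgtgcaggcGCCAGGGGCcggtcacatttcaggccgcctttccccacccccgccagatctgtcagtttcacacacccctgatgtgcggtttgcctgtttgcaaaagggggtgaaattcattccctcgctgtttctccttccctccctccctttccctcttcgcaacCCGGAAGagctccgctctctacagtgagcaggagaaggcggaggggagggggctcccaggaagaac
GATA3 internal start (+ strand), chr10:8050986-8051235: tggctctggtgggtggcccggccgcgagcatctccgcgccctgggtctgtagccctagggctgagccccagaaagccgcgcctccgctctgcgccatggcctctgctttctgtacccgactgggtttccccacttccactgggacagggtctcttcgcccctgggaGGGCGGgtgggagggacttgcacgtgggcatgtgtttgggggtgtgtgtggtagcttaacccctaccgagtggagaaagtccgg
KRT8 start (- strand), chr12:52926470-52926719: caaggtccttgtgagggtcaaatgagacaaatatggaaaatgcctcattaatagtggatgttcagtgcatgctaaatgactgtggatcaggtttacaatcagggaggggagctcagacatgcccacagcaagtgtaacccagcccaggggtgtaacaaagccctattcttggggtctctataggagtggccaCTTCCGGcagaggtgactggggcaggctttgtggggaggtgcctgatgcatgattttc
FOXA1 start (- strand), chr14:37595250-37595499: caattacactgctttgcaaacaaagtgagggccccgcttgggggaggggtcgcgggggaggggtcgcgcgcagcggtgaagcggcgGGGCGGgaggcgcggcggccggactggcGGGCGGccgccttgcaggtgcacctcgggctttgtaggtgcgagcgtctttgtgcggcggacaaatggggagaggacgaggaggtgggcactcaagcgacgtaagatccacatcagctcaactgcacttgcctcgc
PGR outermost start (- strand), chr11:101129814-101130063: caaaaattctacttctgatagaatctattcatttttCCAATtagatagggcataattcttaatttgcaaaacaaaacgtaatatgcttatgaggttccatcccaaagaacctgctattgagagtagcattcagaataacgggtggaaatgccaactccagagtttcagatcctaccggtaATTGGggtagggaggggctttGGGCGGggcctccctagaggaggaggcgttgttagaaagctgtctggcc
ESR1 outermost start (+ strand), chr6:151656422-151656671: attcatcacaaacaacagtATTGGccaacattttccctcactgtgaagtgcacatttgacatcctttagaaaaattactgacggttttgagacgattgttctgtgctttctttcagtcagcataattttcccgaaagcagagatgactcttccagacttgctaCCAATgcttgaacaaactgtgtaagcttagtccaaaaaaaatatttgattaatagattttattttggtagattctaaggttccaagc
The upstream GATA3 window held GCCNNNGGC at 223 to 215 bases and CCGGAAG at 66 to 60 bases before the start. The KRT8 window held CCGGAAG, on the other strand, at 58 to 52 bases before its start. FOXA1 held GGGCGG in 2 places, PGR held it once beside 2 CCAAT matches, and the ESR1 window held 2 CCAAT matches. None of the 6 held AGGTCA, which was in 13.8% of all 35097 windows of 300 bases, the forkhead letters, which were in 3.42%, or the GATA letters, which were in 10.3%. Those windows take in 50 bases after the start and non-coding genes, so they are longer than the 250 bases shown. In windows of protein-coding genes alone the shares were 11.9, 2.85 and 7.91%, in the same order. Of all windows, 23.2% held the AP-2 letters, 0.134% the grainyhead letters, 44.9% GGGCGG, 10.3% CCGGAAG, 34.6% CCAAT and 11.5% TATAAA. The base composition ranged from 36.0% G and C before ESR1 to 67.2% before FOXA1.

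Peak signal at these genes is given in CPM, counts scaled to the same total in peaks for every sample. GATA3 had 6 listed starts and 3 of them had a peak within 1 kb. The peak over the upstream start (chr10:8044976-8045796) held 930, 1313 and 1066 counts, or 72.5, 71.9 and 74.0 CPM, a mean of 72.8 ± 1.05. The peaks at chr10:8050595-8051275 and chr10:8051777-8052231, by an internal start, had means of 72.1 ± 2.11 and 72.6 ± 0.664 CPM. All 3 peaks were of nearly the same strength, above the median of 13.5 CPM over all peaks. The next strongest within 50 kb, chr10:8084672-8085672, had its centre 24715 bases downstream of the last start and had 41.4 ± 2.08 CPM.

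KRT8 had 1 listed start, which lies inside the span of the gene, and other starts of KRT8 were not used here. The peak over it (chr12:52925812-52926704) had 66.5, 71.3 and 71.3 CPM, a mean of 69.7 ± 2.77, and the neighbouring peak chr12:52927336-52927756 had 40.6 ± 2.98 CPM. The strongest peak within 50 kb was chr12:52904507-52905514, within the KRT8 span and centred 21459 bases downstream of the listed start. It had 177, 176 and 189 CPM (mean 180 ± 7.18, rank 350 of all peaks). Whether it lies at a start of KRT8 that was not used was not tested. A peak beyond the 3′ end of the gene, chr12:52879314-52880245, had 112 ± 3.82 CPM. Another peak inside the gene, chr12:52907050-52908062, had 72.5 ± 4.07 CPM. KRT18 has no entry among the starts used, and the gene's span held 1 peak, chr12:52952018-52952451, at 40.4 ± 5.83 CPM.

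FOXA1 had no peak within 1 kb of its start. The nearest, chr14:37597960-37598748, lay upstream, 2711 bases from the start, and had 52.7, 49.3 and 52.0 CPM (mean 51.3 ± 1.78). The strongest, chr14:37546499-37547458, was centred 48271 bases downstream of the start in the span of MIPOL1 and had 144 ± 2.77 CPM. Between them, chr14:37566685-37567388 had 89.7 ± 4.37 CPM. FOXA1 had stronger peaks at a distance than near its start in the table used.

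The receptor genes had weaker peaks. ESR1 had 6 listed starts and none had a peak within 1 kb, while 8 peaks lay within 50 kb of a start. The 3 strongest were chr6:151647943-151648860 at 33.7 ± 1.83 CPM, chr6:151652213-151652687 at 32.9 ± 4.39 CPM and chr6:151666290-151666934 at 18.8 ± 1.12 CPM, all around the outermost start. PGR had 3 listed starts and only 2 peaks within 50 kb, chr11:101091873-101092106 at 6.82 ± 0.472 CPM and chr11:101178299-101178812 at 5.00 ± 0.488 CPM. Those peaks held 66 to 121 counts per sample and lay below the median peak. PGR RNA was higher than ESR1 RNA in every sample, and the order of their peaks was the reverse.

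**Figure D2:**
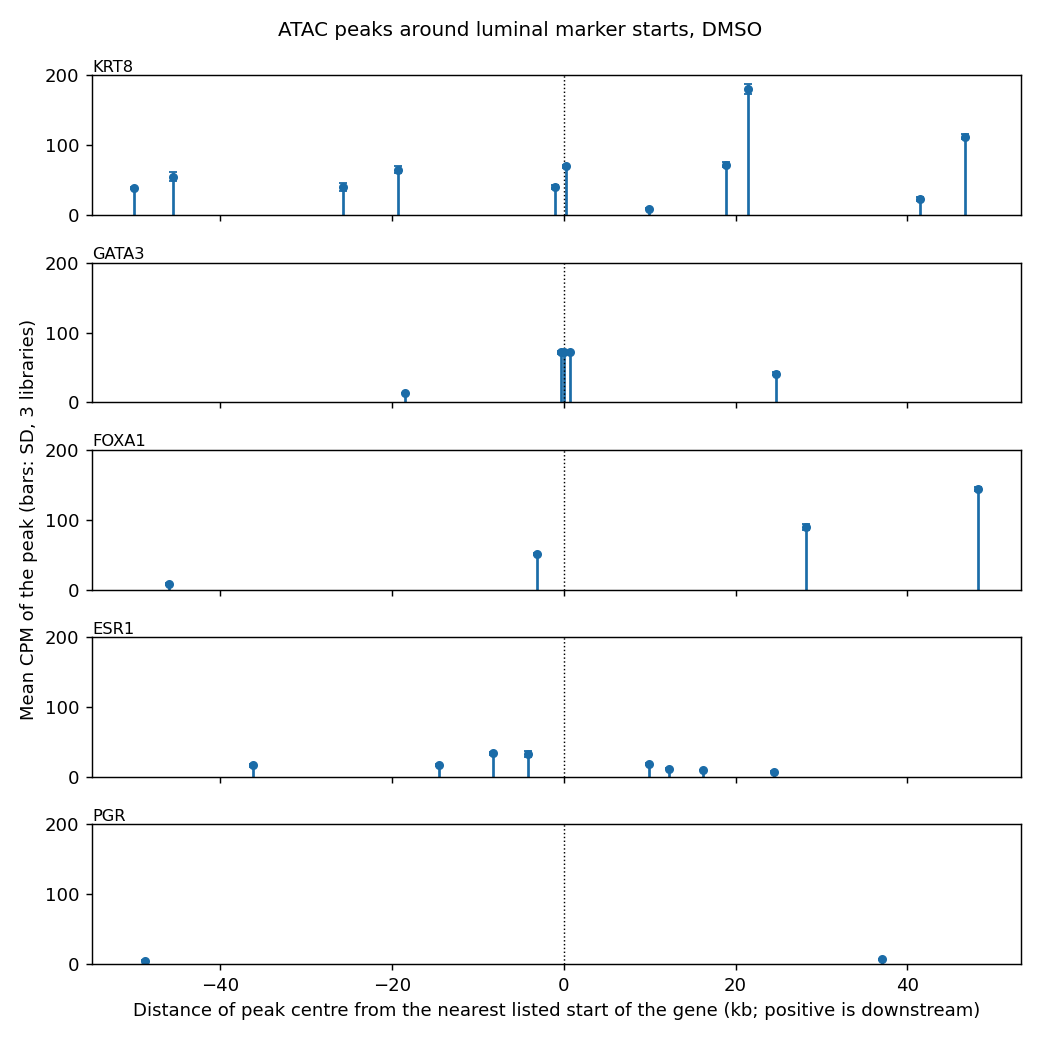
ATAC peaks within 50 kb of a listed start of 5 luminal markers, by the distance of the peak's centre from the nearest start (kb, horizontal) and by mean CPM with its SD over 3 samples (vertical). KRT8 and GATA3 have peaks at a start, FOXA1 has its strongest peak 48271 bases downstream at 144 CPM, and the 2 PGR peaks stand at 6.82 and 5.00 CPM.

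Absence of a peak from the table says nothing of closed chromatin at a start. Of the 17 housekeeping genes, all above 1 FPKM, 13 had a listed start and 4 of them had a peak within 1 kb, where 44.0% of all listed protein-coding genes with a start had one. PPIA (a cyclophilin, 3428 FPKM) had its nearest peak 19898 bases away and EEF1A1 (a translation elongation factor, 3212 FPKM) 2510 bases away.

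The wider luminal list, chosen with earlier results of these data known, was expressed almost throughout. Of its 38 genes all were listed, 35 reached 1 FPKM (92.1%) and 33 reached 10 FPKM, with a median of 90.7 FPKM. Over all listed genes, non-coding ones included, 72.6% reached 1 FPKM and the median was 5.29 FPKM. The 3 highest were KRT19, a simple keratin, at 2113 ± 72.6 FPKM, AGR2, a disulfide isomerase of the secretory pathway, at 1934 ± 73.5 FPKM, and KRT8. XBP1, a factor of the secretory stress response, stood at 872 ± 22.3 FPKM and MUC1, a surface mucin, at 647 ± 17.0 FPKM. The prolactin receptor gene PRLR stood at 306 ± 6.02 FPKM and the adhesion molecule genes EPCAM and CDH1 (E-cadherin) at 196 ± 9.25 and 176 ± 3.03 FPKM.

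Within the luminal list 3 members stayed under 1 FPKM. BCL2, a survival gene, stood at 0.440, 0.361 and 0.413 FPKM, TFAP2B at 0.183 ± 0.0379 FPKM and ANKRD30A, a breast differentiation antigen, at 0.0176 ± 0.0112 FPKM. The oestrogen-responsive secreted peptide gene TFF1 stood at 6.94, 5.77 and 5.53 FPKM, while its relative TFF3 stood at 52.0 ± 4.09 FPKM.

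Genes of the luminal progenitor and of the milk-secreting alveolar cell were mixed. Of 14 such genes, 9 were in the table and 6 reached 1 FPKM, 66.7% of those listed beside 72.6% of all listed genes. ELF5, an ETS factor of alveolar differentiation, stood at 56.1, 55.1 and 55.7 FPKM (mean 55.6 ± 0.485), KRT23 at 41.1 ± 1.65 and KRT15 at 31.8 ± 2.20 FPKM. The milk protein genes CSN2, CSN3 and LALBA and the receptor gene KIT were not listed in the table used here.

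Lists of other cell types had fewer members in the table. Of all protein-coding genes with a start used here, 11116 were in the RNA table and 4727 were not, or were not matched by name. Of 25 basal and myoepithelial genes, 12 were listed and 8 reached 1 FPKM, 66.7% of those listed beside 72.6% of all listed genes. CDH3 (P-cadherin, 33.3 ± 1.06 FPKM) and ITGB4 (integrin beta 4, 32.9 ± 1.14 FPKM) led, followed by ACTA2 at 9.04 ± 0.127, TAGLN at 8.07 ± 0.476 and LAMB3 at 2.30 ± 0.258 FPKM. TP63 stood at 0.0637, 0.0429 and 0.113 FPKM, and the defining keratin genes KRT5, KRT14 and KRT17 were not listed. The summed level of the 12 listed genes was 91.9 to 94.5 FPKM, against 11158 to 11882 FPKM for the 38 genes of the luminal list.

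Of 22 mesenchymal genes, 13 were listed and 4 reached 1 FPKM, 30.8% of those listed beside 72.6% of all listed genes. S100A4, a calcium-binding protein gene, stood at 45.3 ± 1.91 FPKM, COL1A1 (a collagen chain) at 23.7 ± 0.582, FN1 (fibronectin) at 8.20 ± 0.639 and VIM (vimentin) at 1.17, 1.66 and 1.92 FPKM. COL1A2, whose product pairs with that of COL1A1 in type I collagen, stood at 0.453 ± 0.0156 FPKM, and DCN, PDGFRA and PDGFRB were not listed. The 2 collagen chains of the same fibril were thus at very different levels.

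The immune list had 8 of 22 genes in the table and 4 at 1 FPKM or more, 50% of those listed beside 72.6% of all listed genes. CD74, the invariant chain of class II antigen presentation, led at 47.8, 48.3 and 50.4 FPKM, and the class II gene HLA-DRA stood at 2.73 ± 0.225 and LCP1 at 2.36 ± 0.0704 FPKM. PTPRC (CD45) and CD3D, CD3E and CD3G were not listed. Among 14 endothelial genes, ENG (7.63 ± 0.415 FPKM) and ESAM (2.89 ± 0.212) reached 1 FPKM, and PECAM1, CDH5 and VWF were not listed. No adipocyte gene reached 1 FPKM, the 3 listed being at 0.165 to 0.411 FPKM. In a bulk sample, fewer cells of a type and less RNA per cell cannot be told apart.

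Markers of unrelated tissues were mostly not listed, 28 of 36, and 3 of the 8 listed reached 1 FPKM, 37.5% beside 72.6% of all listed genes. WT1, a developmental transcription factor, stood at 2.12 ± 0.165 FPKM, SYP (synaptophysin) at 1.33 ± 0.153 FPKM and the globin gene HBA2 at 0.317, 1.14 and 1.96 FPKM. HBA2 has a near-identical neighbour in HBA1, and its mean normalized count in the authors' deposited table was 12.4, so its level is uncertain. Of the 14 pluripotency and germ line genes, LIN28A, which encodes an RNA-binding protein of early development, stood at 16.3, 16.2 and 17.8 FPKM (mean 16.7 ± 0.935) and SOX2 at 3.50 ± 0.497 FPKM. POU5F1, NANOG and LIN28B were not listed.

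**Figure D3:**
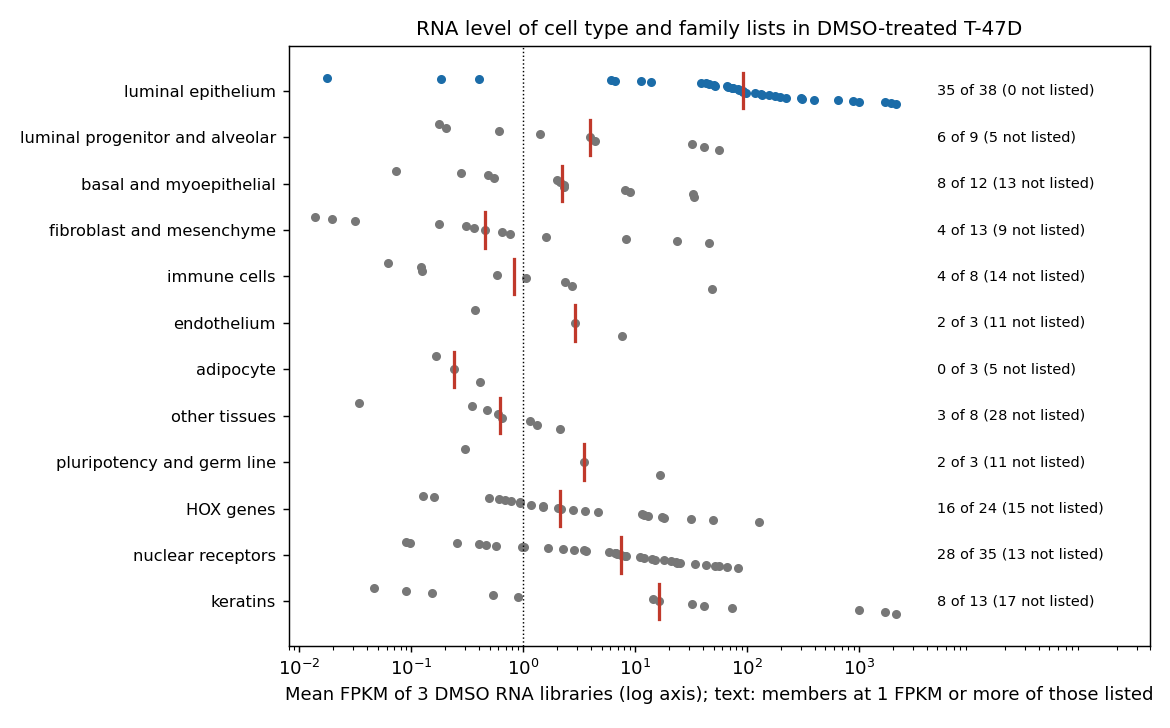
Mean FPKM over the 3 DMSO RNA samples (log axis) of the listed members of 12 gene lists, 1 point per gene, with the list median in red, a dotted line at 1 FPKM, and at the right the number of listed members at 1 FPKM or more. The luminal list has a median of 90.7 FPKM, the mesenchymal list 0.453 FPKM.

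Cell identity was also read from transcription factor families. In the GATA family, 5 of 6 were listed and all 5 reached 1 FPKM, beside 72.6% of all listed genes. GATA3 stood at 391 FPKM and the next, GATA2, at 11.3 ± 0.484 FPKM. Among AP-2 and grainyhead factors, which act in epithelial differentiation, TFAP2A (84.3 ± 2.73 FPKM), TFAP2C (74.8 ± 2.75) and GRHL2 (50.4 ± 0.344) led 7 listed members. In the forkhead list FOXM1, a factor of the dividing cell, followed FOXA1 at 54.1 ± 1.52 FPKM, FOXO3 stood at 7.04 ± 0.291, and FOXA2 and FOXA3 were not listed.

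Of 48 nuclear receptors, 35 were listed and 28 reached 1 FPKM. That was 80% of those listed, above the 72.6% of all listed genes but below the share of listed protein-coding genes. PGR led, followed by the orphan receptor gene NR2F2 (69.5, 65.2 and 64.4 FPKM) and the retinoic acid receptor gene RARA (57.6, 56.5 and 53.4 FPKM). ESR1 was the fifth, behind NR2F6 at 51.2 ± 3.02 FPKM, and ESR2, the other oestrogen receptor gene, stood at 1.02 ± 0.0341 FPKM. Receptors differed at their starts as well. RARG had 33.9 ± 2.19 FPKM and a start peak of 216 CPM, RARA one of 160 CPM, and NR2F2 one of 30.1 CPM. Of 24 receptors at 1 FPKM or more with a listed start, 9 had a peak within 1 kb, where 44.0% of all listed protein-coding genes with a start had one. All 15 oestrogen receptor cofactor genes reached 1 FPKM, beside the same 72.6%. They stood at 8.16 to 40.5 FPKM, led by SMARCA4, KDM1A and KMT2D. A peak was present for 8 of the 13 with a start, beside the same 44.0%.

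HOX genes encode the homeodomain factors that mark position along the body axis and lie in 4 clusters. Of 39 genes, 24 were listed and 16 reached 1 FPKM, 66.7% of those listed beside 72.6% of all listed genes. The HOXC cluster on chromosome 12 had 9 of 9 genes listed and all 9 at 1 FPKM or more, and a summed level of 227 FPKM. Along it, HOXC13 stood at 17.4 ± 0.253 FPKM, HOXC12 at 2.18 ± 0.136, HOXC11 at 13.1 ± 0.640, HOXC10 at 128 ± 4.86, HOXC9 at 11.5 ± 1.03, HOXC8 at 3.56 ± 0.197, HOXC6 at 18.2 ± 0.343, HOXC5 at 1.17 ± 0.191 and HOXC4 at 31.4 ± 0.993 FPKM. Levels did not follow the order of the genes, and HOXC10 exceeded each neighbour in every sample.

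In the HOXB cluster on chromosome 17, 6 of 8 listed genes reached 1 FPKM, HOXB2 at 50.9, 49.9 and 46.3 FPKM and HOXB3 at 11.9 ± 0.769 FPKM being the highest, and the cluster summed to 73.4 FPKM. In the HOXA cluster on chromosome 7, HOXA5 at 1.503 ± 0.357 FPKM was the only one of 5 listed genes above 1 FPKM. In the HOXD cluster on chromosome 2, 2 genes were listed and none reached 1 FPKM. The peaks between the outer ends of each cluster numbered 9 in HOXC (261 CPM in all), 17 in HOXB (378 CPM), 4 in HOXA (80.8 CPM) and 3 in HOXD (59.9 CPM). The clusters with more RNA had more peak signal, but HOXB, which spans 200 kb, had more of it than HOXC, which spans 117 kb and had the higher RNA.

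Members of surface and adhesion families ranged widely in level. Of 26 growth factor receptor genes 19 were listed and 13 reached 1 FPKM. That was 68.4% of those listed, beside 72.6% of all listed genes, non-coding ones included. DDR1 (a collagen receptor) stood at 157 ± 3.52, ERBB3 at 89.6 ± 0.566 and ERBB2 at 43.0 ± 3.14 FPKM. EGFR stood at 1.84, 2.38 and 2.15 FPKM and MET at 0.0329 ± 0.00107 FPKM, the latter with a start peak of 15.7 CPM. In the claudins, which seal tight junctions, CLDN4 (132 ± 5.04 FPKM), CLDN3 (118 ± 8.80) and CLDN1 (94.2 ± 4.04) led 11 listed of 18. Of these 11, 7 reached 1 FPKM, 63.6% beside the same 72.6%. Of 12 cadherins 3 were listed. CDH1 at 176 FPKM and CDH3 at 33.3 FPKM reached 1 FPKM, CDH15 stood at 0.0908 ± 0.0274 FPKM, and CDH2 was not listed. Of 13 mucins 5 were listed, and only MUC1 and MUC20 (2.08 ± 0.276 FPKM) reached 1 FPKM. MUC15 followed at 0.171 ± 0.0605 FPKM. In the keratins, KRT19, KRT8, KRT18 and KRT7 (73.7 ± 1.95 FPKM) led 13 listed of 30.

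Cancer-testis genes, normally limited to the germ line, were listed for 7 of 28, and 5 reached 1 FPKM. That was 71.4% of those listed, beside 72.6% of all listed genes. GAGE2A stood at 81.4, 84.2 and 76.7 FPKM, PRAME at 24.0 ± 1.08 FPKM and GAGE1 at 3.16 ± 0.263 FPKM. The GAGE genes are near-identical copies among which reads can be split, so the levels of single members are uncertain. XAGE1A, another multicopy gene, varied from 0.143 to 2.16 FPKM between samples. Of 17 imprinted genes, PEG10, a retrotransposon-derived gene, stood at 163 ± 7.96 FPKM, SNRPN at 40.5 ± 1.2 and GRB10 at 25.9 ± 0.553 FPKM, and MEG3, DLK1 and PEG3 were not listed.

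The list of cell cycle entry, which holds the cyclin D, CDK4 and RB1 axis and its inhibitors, was nearly complete. Of its 20 listed members, 19 were at 1 FPKM or more, 95% beside 72.6% of all listed genes. CDK4 stood at 95.6, 95.1 and 101 FPKM, CCND1 (cyclin D1) at 98.7, 97.2 and 94.3 FPKM and CDK2 at 61.3 ± 0.872 FPKM. CDK6, the paralogue of CDK4, stood at 0.404, 0.558 and 0.518 FPKM, and the cyclin D2 gene CCND2 was not listed. The gene CDKN2A, whose products include the CDK4 inhibitor p16, stood at 44.0 ± 0.871 FPKM and RB1 at 25.6 ± 0.105 FPKM. The start peak of CDK4 had 244 CPM and that of E2F3 198 CPM, while CDK6 had none within 1 kb. Of 22 chromatin regulators, all listed, 21 reached 1 FPKM, 95.5% beside the same 72.6%. RAD21 (128 ± 3.61 FPKM), HDAC1 (71.6 ± 1.18) and HDAC2 (71.3 ± 3.59) led, and TET1 stood at 0.855 ± 0.0477 FPKM.

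The most abundant RNAs were those of the mitochondrial genome and the ribosome. Of the 20 highest, 13 were mitochondrial: MT-ATP8 at 26944, 27016 and 33106 FPKM, MT-ATP6 at 20108 ± 895 and MT-CO1 at 18845 ± 377 FPKM came first, then MT-ND4, MT-CO2, MT-CO3, MT-ND3, MT-ND4L, MT-ND2, MT-CYB, MT-ND1, MT-ND5 and, at 4245 ± 325 FPKM, MT-RNR2. MT-ATP8 was highest in replicate 3 and overlaps MT-ATP6 on the genome, so the split of reads between them is uncertain. The nuclear genes of the first 20 were RPL41 and RPS27 (ribosomal proteins, 4569 ± 68.4 and 2344 ± 56.4 FPKM), PPIA, EEF1A1, ACTB (actin, 3017 ± 67.9), TMSB4X (an actin-binding peptide, 2643 ± 96.7) and HSPB1 (a small heat shock protein, 2296 ± 218). PIP, a secreted breast protein gene, followed at rank 22 with 2318, 2179 and 2266 FPKM.

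The 100 highest genes of each sample held 42.3, 42.7 and 43.6% of the summed FPKM, a mean of 42.9% ± 0.669. Mitochondrial genes made up 26.6% ± 0.845 and 83 ribosomal protein genes 10.9% ± 0.0859. Of the 100 genes with the highest means, 15 were mitochondrial, 45 encoded ribosomal proteins and 40 were neither. Without the mitochondrial genes the share held by the 100 highest was 24.1%. FPKM is a level per length, so these shares are of summed levels and not of reads. The 69 genes at 1000 FPKM or more held 39.3% of the sum, and the 4689 at 0.1 to 1 FPKM held 0.286%.

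The 3 RNA samples were close to each other. Pearson r of log2(FPKM + 1) across all genes was 0.997 between replicates 1 and 2, 0.996 between 1 and 3 and 0.997 between 2 and 3, as a description across genes, which are not replicates. The median coefficient of variation (CV, the SD over the mean) was 4.98% over genes at 1 FPKM or more. It was 37.2% under 0.1 FPKM, 24.1% at 0.1 to 1 FPKM, 8.24% at 1 to 10, 3.73% at 10 to 100, 2.63% at 100 to 1000 and 3.01% at 1000 FPKM or more. A level under 1 FPKM carried several times the relative spread of a level above 10 FPKM. Replicate 3 lay farthest from the mean in 39.1% of genes at 1 FPKM or more, against 31.0% for replicate 1 and 30.0% for replicate 2.

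**Figure D4:**
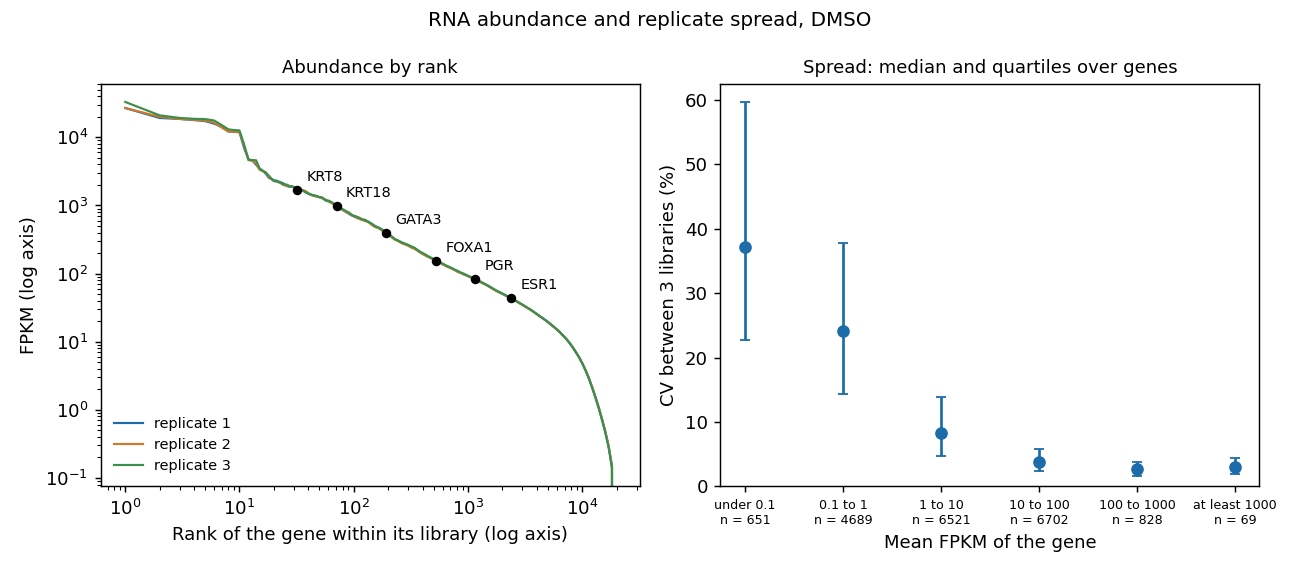
Left, FPKM against the rank of the gene in each of the 3 DMSO RNA samples (both axes log, values of 0 not drawn), with the 6 luminal markers at their mean. Right, median CV between the 3 samples with quartiles over genes, by class of mean FPKM. The median CV falls from 37.2% under 0.1 FPKM to 2.63% at 100 to 1000 FPKM.

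The genes with the widest spread at 10 FPKM or more were highest in replicate 3. PMS2, a mismatch repair gene, stood at 17.4, 16.5 and 36.0 FPKM (CV 47.3%), and it has pseudogene copies that can take its reads. TP53I3, a p53 target, stood at 92.2, 145 and 238 FPKM (CV 46.6%), with the 3 samples far apart. MBD2, a methyl-CpG binding protein gene, stood at 17.1, 18.2 and 31.5 FPKM, the cold-inducible RBM3 at 70.5, 87.7 and 131 FPKM, and ADAT1, a tRNA editing enzyme gene, at 15.8, 22.9 and 28.1 FPKM. Of 7453 named genes at 10 FPKM or more, only 25 had a CV above 20% and 5249 had one under 5%. The narrowest were ELK1 (29.4, 29.4 and 29.4 FPKM), LMNB2, RNF121, ABHD12 and EBP, with a CV of 0.0374 to 0.0863%, the low end of 7453 values.

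Peak counts were also close between samples, over a peak set that is named for IDR. By that name the peaks were kept for agreement between replicates, and the spread without that choice was not measured. The biological coefficient of variation, edgeR's estimate of the relative spread between samples beyond counting error, was 5.63% over all 38121 peaks. The Pearson r of log2 CPM across peaks was 0.985 to 0.988 between pairs of samples. The median CV fell from 13.3% in the lowest decile of peaks by CPM, with a median of 70.7 counts, to 3.55% in the top decile, with a median of 1422 counts.

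Peak strength was uneven. The strongest 1% of peaks, 381 of them, held 8.73% ± 0.169 of counts, and the strongest 10% held 42.0% ± 0.488. The highest peak, chr11:59615606-59616524, covers a start of OSBP, an oxysterol-binding protein gene, and held 6016, 8225 and 6526 counts, or 469, 451 and 453 CPM. The others of the first 10 covered starts of LOC124902686 by STIP1 (chr11:64185342-64186313, 453 ± 14.1 CPM), ACAP2 (chr3:195442611-195443546, 430 ± 9.25), SKA2 (chr17:59154779-59155778, 424 ± 2.76), KPNB1-DT (chr17:47649158-47650030, 421 ± 10.8), TBC1D10B (chr16:30370417-30371287, 418 ± 13.5), RPS6KA5 (chr14:91060276-91061163, 389 ± 14.7) and MAP3K3 (chr17:63621593-63622584, 385 ± 6.72). The remaining pair lay far from any start used. The peak chr16:84013781-84014642 (455 ± 25.7 CPM) lay within SLC38A8, 28153 bases from the nearest start, and chr7:25862195-25862869 (375 ± 3.39 CPM) lay outside listed genes, 29111 bases from one. For RNA levels a single gene was taken per peak. The peaks named for KPNB1-DT, SKA2, TBC1D10B and RPS6KA5 also overlapped KPNB1, PRR11, MYL11 and DGLUCY, in that order, and that of OSBP overlapped LOC101927226. RNA levels of these second genes are not given here. Of the genes taken, SKA2 had the highest RNA level, 116 ± 4.66 FPKM, and KPNB1-DT the lowest with a listed value, 2.90 ± 0.434 FPKM. OSBP stood at 51.7 ± 1.17, ACAP2 at 29.0 ± 1.11, TBC1D10B at 24.5 ± 1.23, MAP3K3 at 14.6 ± 0.873 and RPS6KA5 at 7.23 ± 0.566 FPKM, where the median listed gene stood at 5.29 FPKM.

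Peaks near a gene start were stronger than those farther away. Starts were 35116 positions of 27305 genes from RefSeq, and chromosome 8, where starts were not used here, was left out with its 1740 peaks. Of the other 36381 peaks, 6411 (17.6%) had a base within 1 kb of a start, 21088 lay 1 to 50 kb away and 8882 farther. Their median strength was 42.5, 12.7 and 9.70 CPM, and those within 1 kb held 39.1% of counts. Per kilobase of peak the medians were 55.5, 22.1 and 17.4 CPM, so the order did not rest on the longer peaks near starts. Of the lowest decile of peaks 3.09% were within 1 kb of a start, and of the top decile 59.8%. Most peaks of the table were thus distal to the starts used, and most of the strongest were within 1 kb of such a start. The starts used are not complete: of the 38 luminal genes, 21 had one. A peak at a start that was not used counts as farther away.

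RNA level and start peaks were set side by side for 11116 listed protein-coding genes with a start. A peak within 1 kb was present for 27.5% of the 295 genes under 0.1 FPKM, 35.7% at 0.1 to 1, 46.7% at 1 to 10, 45.6% at 10 to 100 and 40.9% of the 709 genes at 100 FPKM or more. Of 4727 protein-coding genes that were not listed in the RNA table, or not matched to it by name, 11.7% had one. With peaks above the median count alone, the share was 14.9% under 0.1 FPKM and 44.2% at 10 FPKM or more, against 27.5% and 45.0% with all peaks. The share was lowest in genes that were not listed and next lowest under 0.1 FPKM, and did not climb with the level beyond 1 FPKM. The strength did climb, with a median for the strongest start peak of 15.6 CPM under 0.1 FPKM, 24.3 at 0.1 to 1, 47.5 at 1 to 10, 68.8 at 10 to 100 and 86.6 CPM at 100 FPKM or more. The middle 50% of genes spanned 52.2 to 132 CPM in the highest class and 10.1 to 33.2 CPM in the lowest. Across the 4895 genes with such a peak, the Spearman rank correlation between its CPM and FPKM was 0.38, a description across genes.

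**Figure D5:**
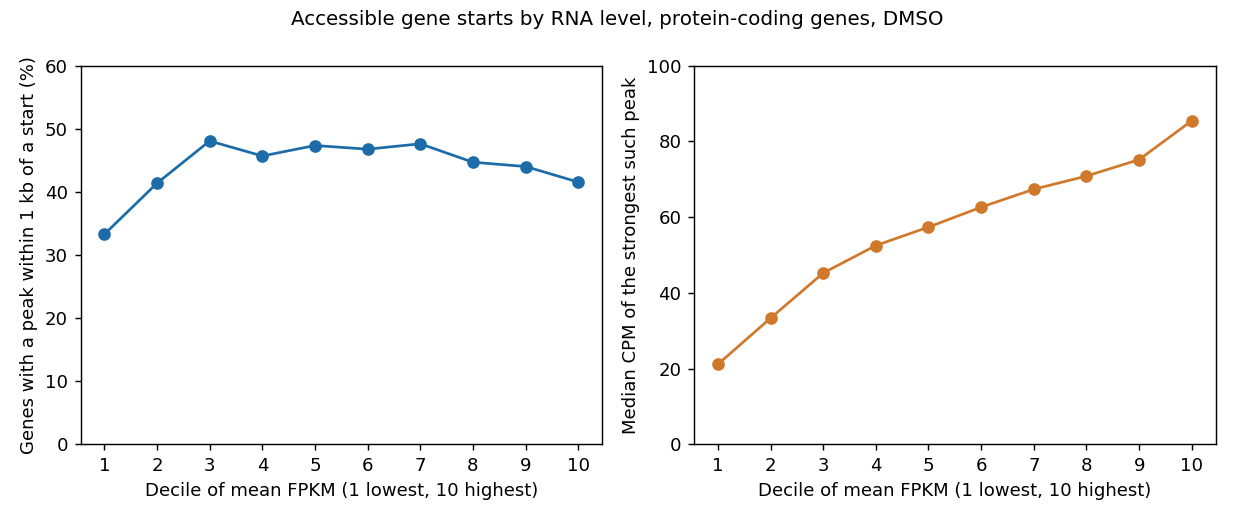
Protein-coding genes in deciles of mean FPKM (1 lowest, 10 highest): left, the share with an ATAC peak within 1 kb of a start; right, the median CPM of the strongest such peak. The share stays between 41.4 and 48.1% from decile 2 up, while the median strength rises from 21.1 CPM in decile 1 to 85.5 CPM in decile 10.

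Single genes departed from this order in both directions. Of 6072 genes at 10 FPKM or more, 3338 had no peak within 1 kb, and the 8 with the most RNA were PPIA, EEF1A1, PIP, RPL35A, AGR2, RPL7A, RPS18 and RPL38. For the luminal secretory genes among them, the nearest peak was 5256 bases from the start of PIP and 75226 bases from that of AGR2. Of the 295 genes under 0.1 FPKM, 81 had a start peak, and for 72 of these no gene at 1 FPKM or more had a listed start within 1 kb of that peak. The strongest of the 72 were at STARD9, a kinesin-like gene, with 174 CPM and 0.0680 ± 0.0302 FPKM, TTLL6, a tubulin glutamylase gene, with 153 CPM and 0.0966 ± 0.0551 FPKM, and TLL2 with 85.8 CPM and 0.0777 ± 0.0133 FPKM. NR4A3, an immediate early nuclear receptor gene, had 57.3 CPM and 0.0979 ± 0.0198 FPKM.

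Base composition of the 300-base windows at starts differed between RNA classes. Windows of protein-coding genes that were not listed had a median of 54.7% G and C, those under 0.1 FPKM 60.0% and those at 10 FPKM or more 65.0%. The CpG observed over expected ratio, which is low where methylated CpG has been lost over evolution, was 0.335, 0.558 and 0.840 in the same order. By peak the order was not the same throughout. Over all protein-coding genes, windows overlapped by a peak had a median of 64.3% G and C and those without one 61.3%, while within genes at 10 FPKM or more the medians were 64.3% with a peak and 65.7% without. The CpG ratio in those highly expressed genes was 0.852 with a peak and 0.831 without. CCGGAAG, the ETS letters, was in 3.76% of windows of genes that were not listed, 4.51% under 0.1 FPKM and 20.4% at 10 FPKM or more, where all windows gave 10.3%. Within genes at 10 FPKM or more it was in 27.7% of the 3130 windows with a peak and 16.3% of the 5714 without. GGGCGG was in 72.2% and 66.8% of these, and CCAAT in 41.7% and 33.1%. TATAAA went the other way, at 17.4% of windows of genes that were not listed and 5.56% at 10 FPKM or more. In the genes at 10 FPKM or more, TGTTTAC and AGATAA were in 2.62% and 3.87% of windows with a peak and 2.42% and 5.30% without. AGGTCA was in 9.58% with a peak and 9.85% without, and GCCNNNGGC in 30.3% and 31.9%. Only windows at starts were searched, not peaks away from them. A match is a string of letters and not a bound site.

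Chromosomes differed in the number and the strength of peaks. Chromosome 1 held 3763 peaks and chromosome 21 held 487. The median peak was strongest on chromosome 19, at 21.0 CPM, and weakest on chromosome 18, at 9.62 CPM. CPM is not corrected for the DNA copy number of a chromosome, whose part was not tested. Per gene at 1 FPKM or more, chromosome 19 had the fewest peaks, 1.93, and chromosome 8 the most, 4.07. Chromosome 10, which carries GATA3, followed with 3.94, and chromosome X had 2.12.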

How the data were processed

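RNA and ATAC libraries of DMSO-treated T-47D cells were used, 3 of each. The FPKM values were deposited by the authors, 1 column per library. The submitters' processing notes name fastp 0.23.2, Salmon 1.10.2, STAR 2.7.10b, SAMtools 1.16 and DESeq2 1.44.0 on GRCh38, without saying which made the table. The mean normalized count used as a depth guide is a signal the authors deposited, averaged over all 6 RNA libraries. Peak counts were made by the authors with featureCounts 2.0.6, per the file headers, over 1 peak set for both treatments. The peak set is named for IDR, a filter that keeps peaks on which replicates agree. No option to count read pairs was set, so the counts were taken as reads. The notes also name Bowtie2 2.5.4-6, Picard 3.4.0-0 and MACS3 3.0.3-0.

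Means, SDs and CVs were computed with pandas 2.3.3 in Python 3.11.15, and the biological coefficient of variation with edgeR 4.0.16 in R 4.3.3 (TMM, filterByExpr, intercept only). No groups were compared and no test was run. Of 19460 genes, 15756 received a symbol from the gene name table and 15691 matched RefSeq. Starts within 1 kb of any base of a peak counted as having it. The functions were tested on simulated data. Members and the 27 lists were chosen with earlier results of these data known. Named were the 6 markers, the 20 highest genes, the 3 highest of each list, members of lists of other cell types at 1 FPKM, the 5 widest and 5 narrowest genes, the HOX order, the 10 highest peaks and the marker peaks. The other names, and the windows of FOXA1, PGR and ESR1, were chosen after their values were seen. A few list members that entered the counts are not reported here by name.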

Additional observations from a re-analysis of the deposited data

How the results depend on the processing

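No test was run. The settings below change which genes, peaks or samples enter, and other causes of a move were not tested. No paired analysis was possible because only 1 group was described. Counts of genes at 1 FPKM or more stayed within 1.5 times the main value under every alternative tried. Counting genes with a mean under 0.1 FPKM, in place of 0 in all samples, gave 651 genes for 2, and leaving out a sample gave 7 to 9. Without mitochondrial genes the 100 highest held 24.1% of FPKM. Leaving out a sample gave a share of 42.5 to 43.2%. The median CV was 5.55% at 0.5 FPKM or more, 3.56% at 10 or more and 7.07% with no filter, and leaving out a sample gave 3.67 to 4.27%, since a CV of 2 values is lower at the median by construction. The median SD of log2(FPKM + 1) was 0.063, moving to 0.071 with a pseudocount of 0.1 and 0.049 at 10 FPKM or more, and to between 0.047 and 0.055 without a sample. The coefficient for peaks was 5.26 to 5.95% without a sample.

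The strongest 1% of peaks held 8.24% of counts when ranked per kb. Peaks near a start were 16.1% within 500 bases, 20.1% within 2 kb and 29.6% among peaks above the median count. Genes at 10 FPKM or more with a start peak were 43.9%, 47.1% and 44.2% under these settings, and 45.0 to 45.1% without a sample. Genes under 0.1 FPKM were 23.7%, 32.5% and 14.9%, and 26.8 to 29.5%. The rank correlation of start peak and RNA level was 0.384 per kb, 0.380 summed over peaks, 0.283 at 1 FPKM or more, and 0.381 to 0.383 without a sample. Of 54 list counts at other thresholds, 12 moved by over 1.5 times, 11 of them at 5 FPKM. None of 81 leave-one-out list counts did. With 3 samples, an SD is itself imprecise, and RNA depth is known only through the mean normalized count. The start table is not complete, so shares of genes with a start peak, and shares of peaks near a start, are those of the starts used.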
